A study of Mus musculus with 22 samples.

Results

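The S100 genes encode small calcium-binding proteins. The 10 genes described here, S100a1, S100a4, S100a6, S100a8, S100a9, S100a10, S100a11, S100a13, S100b and S100g, were taken from a fixed list and make up 10 of the 31053 genes in the matrices. S100 proteins carry paired EF-hand loops. Most, but not all, change shape when calcium binds and act as dimers that hold on to other proteins. S100a8 and S100a9 form calprotectin, a metal-binding complex stored in the cytosol of neutrophils, whereas S100a10 sits on annexin A2 at the plasma membrane and S100g (calbindin D9k) buffers calcium in absorptive epithelia. S100 proteins are also released and can signal through receptors such as RAGE and Toll-like receptor 4.

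The mice carried a tamoxifen-inducible Cre at the Prom1 locus (Prom1-CreERT2) and a ZsGreen reporter at Rosa26 (Rosa26ZSG). They were wild type (wt) or carried the strain entry Nalcn-het or Nalcn-null, Nalcn being a sodium leak channel gene. All groups, wt included, carried the Cre and the reporter, and the study gave tamoxifen to switch the Cre on, so that a ZsGreen signal marks cells of the Prom1-expressing lineage. Blood cells sorted for ZsGreen from mice without tumours (ntCZC) gave 2 wt, 4 het and 4 null libraries. Pools of perfused organs (tissue), made of lung, liver, stomach and kidney with uterus or epididymis, gave 5 wt, 2 het and 2 null libraries. These mice were 551 to 654 days old. In ntCZC, het replicate 3 and null replicates 1, 3 and 4 were labelled female and the other libraries male. In tissue, wt replicates 4 and 5 and null replicate 3 were labelled female and the other grouped libraries male. Sex and genotype were thus partly confounded, with no female wt library in ntCZC. Both tissue het libraries were labelled 551 days, younger than every tissue wt library, so age and genotype cannot be told apart there. Peripheral blood mononuclear cells (PBMC) of a wt mouse aged 120 days gave 1 library. Another 2 tissue libraries had titles and strain entries that named different genotypes and entered no comparison.

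Libraries were counted as unique molecular identifiers (UMIs), which stand for captured transcripts, per droplet barcode. ntCZC libraries held 50 to 621 barcodes and 161541 to 2600526 UMIs, tissue libraries 1856 to 27857 barcodes and 8571019 to 139793927 UMIs, and the PBMC library 752 barcodes and 1422144 UMIs. In ntCZC wt replicate 3, 73.5% of UMIs came from haemoglobin genes and 11 of 77 barcodes passed the filter. Tissue null replicate 3 was labelled female but held Y-linked transcripts at 31.2 CPM (a gene's UMIs per 1000000 UMIs of the library) and 453 barcodes with epididymal markers. It entered the fits under its labelled sex, and without sex in the fit 0 S100 genes were called in the tissue genotype comparisons. Nalcn had 0 UMIs in all ntCZC libraries and at most 0.386 CPM in grouped tissue libraries. Because no label ties a library to an animal, n is a number of libraries, and p-values measure the spread between libraries. Replicate libraries of a tissue group shared 7 to 226 barcodes, at most 0.860% of the smaller library, and those of an ntCZC group shared 0.

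A barcode was put in a cell class, written with the ending "-like", when at least 3 of 6 markers of that class had a UMI and no other class came close. No S100 gene was a marker. Of 95843 barcodes that passed the filter (200 genes or more, mitochondrial UMIs 25% or less), 44331 had a class after 15088 doublets had been removed. At least 3 markers of more than 1 class were seen in 15439 passing barcodes (16.1%), and tissue neutrophil-like, T cell-like and monocyte-like barcodes carried a median of 1 of 6 proximal tubule markers.

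Of the 10 genes, 8 lie on chromosome 3 between 90511034 and 93564643 (mm10, GENCODE coordinates). S100a8 (90668978 to 90670035, plus strand) and S100a9 (90692632 to 90695721, minus strand) point towards each other across 22597 bases. S100a1 (90511034 to 90514392, minus strand) and S100a13 (90514435 to 90524581, plus strand) lie head to head. S100a4 (90603771 to 90606045), S100a6 (90612882 to 90624181), S100a11 (93520488 to 93526287) and S100a10 (93555080 to 93564643) are on the plus strand. S100b (chromosome 10, 76253853 to 76261159) overlaps Dip2a on the other strand, and S100g (chromosome X, 162961992 to 162964599) overlaps Ctps2 on the other strand. S100a4 overlaps Gm42674 on its own strand, and S100a11 has a processed pseudogene on chromosome 12, so reads of these 2 genes could have been shared with another gene.

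Upstream sequence of 5 genes is given because these genes carried the main contrasts below. Each run covers the 250 bases before the RefSeq start (GRCm38.p6), and RefSeq gave such a window for 9 of the 10 genes, S100a10 being the exception. RefSeq starts differ from the GENCODE coordinates above for some genes. For S100a8 the RefSeq start is 90669071, so that the end of its run lies inside the GENCODE gene, and for S100a1 it is 90514330. In the first 4 runs capitals mark matches on either strand to any of 4 motifs. The TATA box was searched as TATAAA and the binding letters of C/EBP factors as TTNNGNAA. Those of ETS factors were searched as AGGAAG, and the GC box was searched with the letters GGGCGG.
S100a8, chr3:90668821-90669070, plus strand: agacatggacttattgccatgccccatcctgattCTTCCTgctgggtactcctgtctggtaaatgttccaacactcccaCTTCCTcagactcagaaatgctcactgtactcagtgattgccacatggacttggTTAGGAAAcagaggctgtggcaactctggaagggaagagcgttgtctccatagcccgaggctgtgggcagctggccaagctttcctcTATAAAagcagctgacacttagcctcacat
S100a9, chr3:90695722-90695971, minus strand: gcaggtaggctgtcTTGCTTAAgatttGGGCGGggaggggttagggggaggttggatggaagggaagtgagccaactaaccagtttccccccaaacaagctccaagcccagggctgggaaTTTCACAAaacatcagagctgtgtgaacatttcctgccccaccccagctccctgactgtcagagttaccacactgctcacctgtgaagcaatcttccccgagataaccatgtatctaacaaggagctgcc
S100a4, chr3:90603520-90603769, plus strand: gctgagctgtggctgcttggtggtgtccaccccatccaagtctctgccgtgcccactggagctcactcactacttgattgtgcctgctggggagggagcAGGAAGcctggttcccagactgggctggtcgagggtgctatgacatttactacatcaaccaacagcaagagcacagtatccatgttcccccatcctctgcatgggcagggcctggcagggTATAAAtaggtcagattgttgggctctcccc
S100g, chrX:162964600-162964849, minus strand: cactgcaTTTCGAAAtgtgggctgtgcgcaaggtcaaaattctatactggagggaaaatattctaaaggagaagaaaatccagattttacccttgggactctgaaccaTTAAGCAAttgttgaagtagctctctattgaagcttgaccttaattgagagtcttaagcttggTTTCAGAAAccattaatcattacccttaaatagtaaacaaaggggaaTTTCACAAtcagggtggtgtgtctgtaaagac
In the fifth run capitals mark the 104 bases between the RefSeq starts of S100a13 and S100a1, part of which lies inside S100a1 as GENCODE draws it.
S100a13, chr3:90514185-90514434, plus strand: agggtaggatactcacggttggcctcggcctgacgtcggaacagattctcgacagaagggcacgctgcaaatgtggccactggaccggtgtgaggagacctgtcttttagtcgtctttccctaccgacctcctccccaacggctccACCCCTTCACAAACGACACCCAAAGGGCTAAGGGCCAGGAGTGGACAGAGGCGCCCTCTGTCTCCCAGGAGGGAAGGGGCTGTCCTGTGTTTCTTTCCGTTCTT
Positions below give the first base of a match counted back from the RefSeq start. TATAAA occurred at -30 in S100a8 and at -31 in S100a4, against 12.4% of 32851 windows of the same length. S100a8 held a C/EBP match at -117 and ETS matches at -216 and -171. S100a9 held C/EBP matches at -236 and -130 and a GC box at -223, and S100g held 5 C/EBP matches, of which those at -79 and -78 overlap. C/EBP letters were found in 36.8% of all windows, ETS letters in 29.5% and the GC box in 32.7%, so such matches are common. The S100a1 and S100a13 windows held none of the 4 motifs.

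Neutrophil-like barcodes carried S100a8 and S100a9 at far higher levels than any other ranked class in tissue. S100a8 stood at 17827 ± 5815 CPM (SD, n = 8 libraries with at least 20 such barcodes). It ran from 11393 CPM in null replicate 2 to 25731 CPM in wt replicate 1. S100a9 stood at 27452 ± 6534 CPM (SD, n = 8), from 18499 CPM in wt replicate 4 to 36879 CPM in null replicate 3. In the class ranked next, alveolar type 1-like, S100a8 reached 258 ± 448 CPM (SD, n = 3) and S100a9 324 CPM, with S100a8 at 0 in the median library. Both transcripts were seen together in 1490 of 1532 tissue neutrophil-like barcodes (97.3%), in 102 of 105 ntCZC ones and in all 32 PBMC ones. The pair made up 5.31% of all UMIs of neutrophil-like barcodes in tissue, 12.6% in ntCZC and 9.59% in PBMC. S100a8 read 56606 CPM in the 96 neutrophil-like barcodes of ntCZC wt replicate 1 and 43219 CPM (40870 to 45666, exact 95% Poisson interval) in those of the PBMC library. These intervals, and the binomial ones below, cover counting error only.

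Neutrophil-like barcodes were also high in S100a11, a partner of annexins A1 and A2, at 2920 ± 518 CPM in tissue (SD, n = 8), and in S100a6, at 3137 ± 737 CPM (SD, n = 8). They were low in S100a4, at 57.3 CPM, and S100a10 ran from 0 to 177 CPM. In the ntCZC wt replicate 1 neutrophil-like barcodes S100a11 read 6598 CPM, S100a6 6418 CPM and S100a4 6.66 CPM, and in PBMC S100a11 read 5087 CPM (4303 to 5972), S100a6 6077 CPM (5217 to 7038) and S100a4 0 UMIs. S100a11 was higher in neutrophil-like than in ciliated cell-like barcodes, the class ranked next, in 8 of 8 libraries (exact two-sided sign-flip permutation p = 0.0078125, the smallest that 8 libraries allow; adjusted p = 0.805 over 206 neighbouring pairs).

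Outside neutrophil-like barcodes S100a8 and S100a9 were seen at low shares in tissue that varied between libraries. After thinning to 1000 UMIs, 97.3% of neutrophil-like barcodes kept an S100a8 UMI. B cell-like barcodes, which should lack the gene, had one in 5.03% (4.24 to 5.91, exact binomial interval) when libraries were pooled, against 7.48% before thinning at a median of 1583 UMIs. Tissue wt replicate 2 carried most of these 138 barcodes, and without it, an alternative added after seeing the data, the share was 1.69% (1.18 to 2.34). In that library 15.4% of B cell-like, 13.2% of T cell-like, 16.8% of endothelial cell-like, 9.81% of macrophage-like and 19.4% of nonclassical monocyte-like barcodes had an S100a8 UMI. Without it the pooled shares of the other 4 classes were 1.52%, 1.91%, 2.55% and 2.82%, in the same order. Single libraries among the rest ran from 0 to 9.02% in B cell-like and from 0.515% to 9.43% in macrophage-like barcodes. S100a9 gave 6.41% of B cell-like barcodes with all libraries and 1.93% without wt replicate 2, and 6.26% and 3.18% of macrophage-like ones. Shares at the level of B cell-like barcodes are not read as expression, and whether the macrophage-like and monocyte-like shares exceeded that level was not tested. In ntCZC neither gene had a UMI in 245 B cell-like or 125 T cell-like barcodes, which allows up to 1.22% and 2.40% of barcodes with a UMI and sets no limit on cells with the transcript. S100a8 had a UMI in 18 of 126 ntCZC macrophage-like barcodes, at a median of 11803 UMIs against 3302 in B cell-like and 4674 in T cell-like ones, and in 3.51% of them when thinned.

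**Figure D1:**
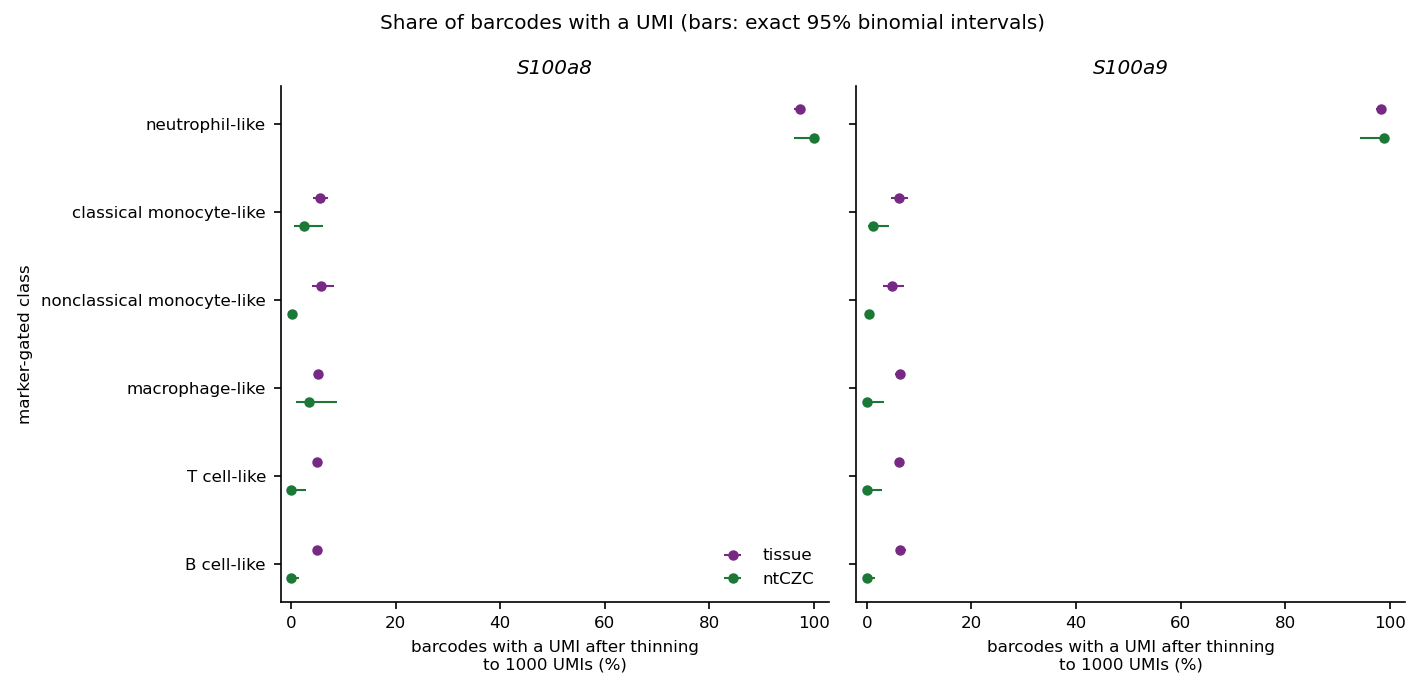
Share of barcodes with at least 1 S100a8 (left) or S100a9 (right) UMI after thinning to 1000 UMIs, in percent, for 6 marker-gated classes in tissue (purple) and ntCZC (green), with exact 95% binomial intervals. Neutrophil-like shares lie above 97%, and the B cell-like share of S100a8 is 5.03% in tissue, most of it from wt replicate 2, and 0 in ntCZC.

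Within a tissue library the ratio of S100a8 to S100a9 UMIs was nearly the same in neutrophil-like barcodes and elsewhere. It was 0.850 and 0.917 in wt replicate 1, 0.676 and 0.695 in wt replicate 2, 0.495 and 0.488 in null replicate 3, and 0.573 and 0.670 in het replicate 2. Between 5.64% and 58.8% of a grouped tissue library's UMIs of the pair lay in neutrophil-like barcodes. In tissue null replicate 3, 54.2% lay in barcodes that failed the filter.

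In alveolar macrophage-like barcodes the ratio was higher. They held 2321 S100a8 and 1738 S100a9 UMIs in 4319 barcodes, a ratio of 1.34 (1.25 to 1.42), against 0.733 (0.669 to 0.802) in B cell-like and 0.695 (0.662 to 0.730) in endothelial cell-like barcodes. Tissue wt replicate 2 gave 982 and 1072 of these UMIs, a ratio of 0.916. Without it, a setting added after the data were seen, the ratio was 2.01 (1.83 to 2.21), against 0.720 (0.714 to 0.726) in all other non-neutrophil barcodes. Other classes also had high pooled ratios, with wider intervals. They were 1.35 (0.978 to 1.88) in gastric mucous cell-like, 1.33 (0.694 to 2.61) in basophil or mast cell-like and 1.08 (0.456 to 2.60) in club cell-like barcodes. Loop of Henle-like barcodes had 0.955 (0.499 to 1.82) and classical monocyte-like ones 0.906 (0.794 to 1.03). The alveolar macrophage-like ratio was above that of all other non-neutrophil barcodes in 8 of 8 libraries with at least 20 alveolar macrophage-like barcodes. The largest were 8.38 in het replicate 1, from 134 and 16 UMIs, and 6 in wt replicate 1, from 522 and 87 UMIs. The smallest was 0.653 in null replicate 2, against 0.497 elsewhere. The mean log2 difference was 1.47 ± 1.20 (SD, n = 8; exact two-sided sign-flip permutation p = 0.0078125, the smallest possible), for a class chosen after its values had been seen. Of 126 macrophage-like ntCZC barcodes, 18 held only S100a8 and 1 only S100a9, and of 167 classical monocyte-like ones, 17 and 1. Of 899 nonclassical monocyte-like ones, 6 held only S100a8 and 8 only S100a9.

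**Figure D2:**
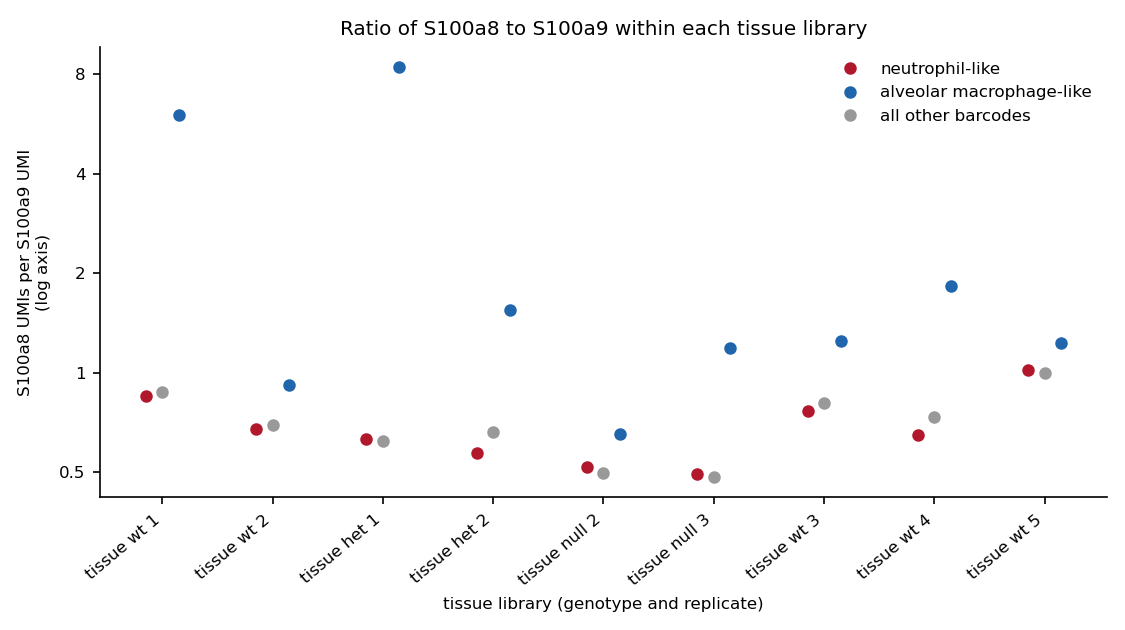
S100a8 UMIs per S100a9 UMI (log axis) in each grouped tissue library, for neutrophil-like (red), alveolar macrophage-like (blue) and all other barcodes (grey). Blue points lie above the grey ones in each library, up to 8.38 in het replicate 1, while red and grey points stay close; wt replicate 5 had 11 alveolar macrophage-like barcodes and did not enter the test.

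S100a4, a myosin-binding member linked to cell motility, led in monocyte-like and type 2 dendritic cell-like barcodes in tissue and in ntCZC. Below them the order differed when ntCZC libraries were pooled. In tissue it was highest in classical monocyte-like barcodes, at 1170 ± 312 CPM (SD, n = 8; lowest 800, median 1135, highest 1744). It followed at 778 ± 261 CPM in type 2 dendritic cell-like (SD, n = 5), 682 ± 95 in nonclassical monocyte-like (SD, n = 7) and 414 ± 173 in T cell-like barcodes (SD, n = 8). Macrophage-like barcodes had 135 ± 71.9 CPM (SD, n = 9), and type 1 dendritic cell-like ones 32.1 ± 30.4 (SD, n = 8). T cell-like exceeded macrophage-like barcodes in 8 of 8 libraries and nonclassical monocyte-like exceeded T cell-like barcodes in 7 of 7 (exact sign-flip permutation p = 0.0078125 and 0.015625, the smallest possible; adjusted p = 0.805 and 1). Classical monocyte-like ntCZC barcodes gave 2155 CPM in wt replicate 1, 2536 in het replicate 4 and 2940 in null replicate 2, each above the highest tissue library, a difference that was not tested. Pooled over ntCZC, S100a4 read 994 CPM (810 to 1208, counting interval) in 24 natural killer cell-like and 437 (404 to 472) in macrophage-like barcodes, both above T cell-like ones at 373 (327 to 424).

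T cell-like barcodes differed in S100a4 between blood libraries. An S100a4 UMI was found in 50 of 125 ntCZC T cell-like barcodes (40%, 31.3 to 49.1) and in 9 of 238 PBMC ones (3.78%, 1.74 to 7.06). After thinning the shares were 20.2% and 2.28%, and the tissue share was 27.2%. B cell-like barcodes, as a class low in the gene, gave 2.50%, 0.546% and 2.40%. With 1 PBMC library, from a younger mouse and not sorted for ZsGreen, there is no test. Age, sorting and library cannot be told apart.

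S100a6, which binds annexins and the ubiquitin-ligase adaptor Cacybp, and S100a10, the annexin A2 partner, led in the lining cells of body cavities. S100a6 read 5090 ± 849 CPM in mesothelial cell-like barcodes (SD, n = 5) and 3166 ± 429 in fibroblast-like ones (SD, n = 8). S100a10 read 1490 ± 297 CPM in mesothelial cell-like (SD, n = 5) and 954 ± 182 in fibroblast-like barcodes (SD, n = 8). Mesothelial cell-like lay above fibroblast-like barcodes in 5 of 5 libraries for both genes, where the exact permutation test can go no lower than p = 0.0625. Alveolar type 1-like (3101 ± 381 CPM, SD, n = 3) and classical monocyte-like barcodes (2479 ± 496, SD, n = 8) were also high in S100a6. Squamous epithelium-like barcodes, too few to rank, read 5193 CPM (4823 to 5583) over 32 barcodes.

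The remaining genes led in epithelium or endothelium. S100a1, known as a regulator of calcium handling in muscle, read 722 ± 134 CPM in loop of Henle-like (SD, n = 3), 608 ± 216 in ciliated cell-like (SD, n = 8) and 479 ± 120 in alveolar macrophage-like barcodes (SD, n = 8). These means cover different libraries. In the 3 libraries with both classes, loop of Henle-like barcodes lay above ciliated cell-like ones in only 1 (mean log2 difference -0.057). S100a1 thus had no clear lead between these classes. It read 1150 CPM (1033 to 1276) over 77 pooled intercalated or clear cell-like barcodes. S100a13, involved in the release of proteins that lack a signal peptide, was highest in endothelial cell-like barcodes at 400 ± 62.3 CPM (SD, n = 9). Its head-to-head neighbour S100a1 read 155 CPM there, and over 23 ranked classes the log2 levels of the 2 genes had a Pearson r of 0.196. S100a8 and S100a9 had an r of 0.986 over the same 23 classes, given as a description.

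S100g read 1102 ± 326 CPM in alveolar type 2-like barcodes (SD, n = 3), with 746 in null replicate 2, 1175 in het replicate 1 and 1386 in wt replicate 2. A UMI was found in 60.7% of thinned alveolar type 2-like barcodes (52.2 to 68.7), against 2.80% of B cell-like ones. Loop of Henle-like barcodes had 241 ± 189 CPM (SD, n = 3) and proximal tubule-like ones 114 ± 19.2 (SD, n = 8). The 18 distal tubule or principal cell-like barcodes read 2026 CPM (1772 to 2306) when pooled. S100b, a marker of glia, was rare. It was found in 42 of 456 ciliated cell-like barcodes (9.21%, 6.72 to 12.2) at 15.4 ± 15.1 CPM (SD, n = 8), in 29 of 725 epididymal epithelium-like barcodes (4.00%), and in 1 of 3423 B cell-like barcodes. The single Schwann cell-like barcode held 2 S100b UMIs.

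**Figure D3:**
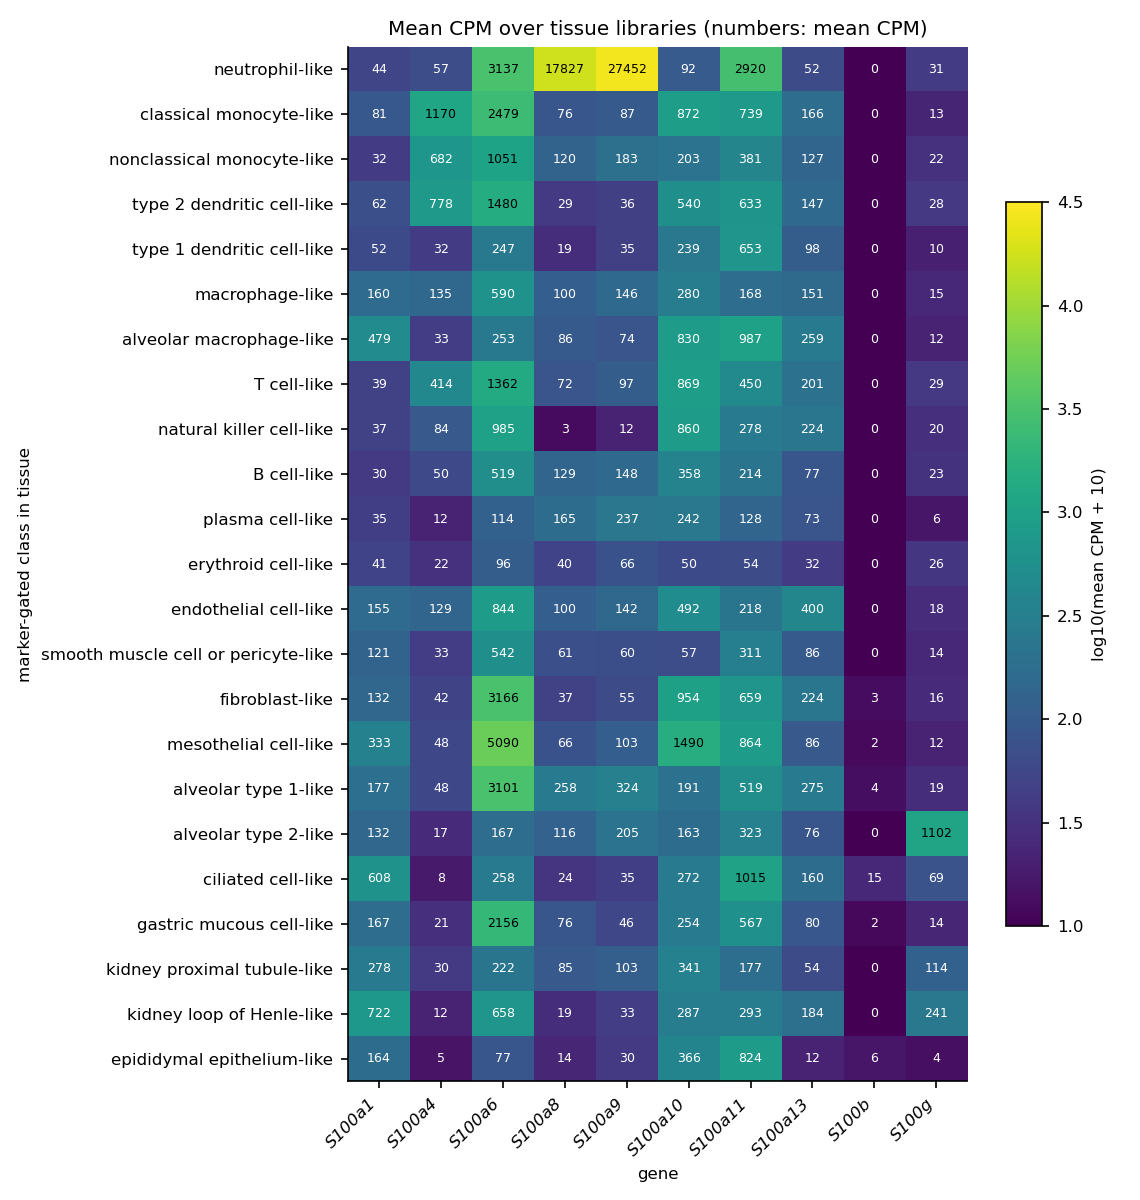
Mean CPM over tissue libraries of each S100 gene (columns) in the 23 marker-gated classes with at least 3 libraries of 20 barcodes (rows), with the mean printed in each cell and the colour on a log10(CPM + 10) scale. S100a8 and S100a9 peak at 17827 and 27452 in neutrophil-like barcodes, S100a6 at 5090 in mesothelial cell-like and S100g at 1102 in alveolar type 2-like barcodes.

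Of 206 pairs of classes next to each other in these orders, 0 passed the adjusted threshold and 3 had an unadjusted p below 0.05. The smallest p of the exact permutation test ran from 0.00391 with 9 libraries to 0.5, so a pair on its own could not pass a correction over 206 pairs, and these counts do not show which neighbours differ. S100a8 in neutrophil-like against alveolar type 1-like barcodes, for example, was higher in 3 of 3 libraries, where p cannot go below 0.25. The leading class was the same in all 13 settings tried for S100a4, S100a8, S100a9, S100a11, S100a13 and S100b. It was the same in 12 for S100a6 and S100a10, 9 for S100g and 8 for S100a1, where ciliated cell-like barcodes led in the others.

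For each gene the most similar profiles over the 23 classes were looked up among 8813 genes. S100a8 was nearest to Acod1 (r = 0.947), G0s2 (0.926) and Gm5483 (0.909), and S100a9 to G0s2 (0.934), Retnlg (0.928), which was one of the neutrophil markers, and Acod1 (0.928). S100b was nearest to Wdr19 (0.920), S100g to Pon1 (0.898), S100a1 to Fuom (0.870), S100a13 to Xiap (0.845), S100a6 to Cast (0.834) and S100a4 to Arl5c (0.816). S100a11 was nearest to Mrpl33 (0.783), followed by Anxa2 (0.766) and Anxa1 (0.762), which encode its annexin partners. S100a10 had the loosest match, Nasp (0.746).

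All barcodes of each library were then summed to compare circulating tagged cells with solid organs. In such sums fewer cells of a type and less RNA per cell cannot be told apart. By edgeR's quasi-likelihood test, 5 of the 9 tested genes differed between 10 ntCZC and 9 tissue libraries, where 64.5% of 10681 genes did, so that a count of 5 is near the background. S100a4, S100a6 and S100a13 were higher in ntCZC, and S100a1 and S100g lower. Over all genes 3042 were called higher and 3849 lower, against 2202 and 4736 under RLE scaling, which moved the median log2 difference of all genes by -0.22; the 5 S100 genes kept their direction.

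S100a4 ran from 24.8 CPM (ntCZC wt replicate 3) to 1794 (null replicate 2) in ntCZC, with a median of 833, and from 47.8 to 212 in tissue, with a median of 79.8. The fitted log2 difference was 3.03 (SE 0.454, adjusted p = 6.88e-06). Apart from ntCZC wt replicate 3 and het replicate 3 (90.1 CPM), all ntCZC libraries lay above the highest tissue library.

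S100a6 read 1428 ± 916 CPM in ntCZC (SD, n = 10) and 622 ± 265 in tissue (SD, n = 9), with overlapping ranges, a log2 difference of 1.06 (SE 0.349) and an adjusted p of 0.0120. S100a13 read 153 ± 46.1 and 111 ± 22.8 CPM, a log2 difference of 0.45 (SE 0.129, adjusted p = 0.00479). When sums were restricted to barcodes of 200 or more genes whose mitochondrial share was 20% or less, S100a6 had an adjusted p of 0.0961 and S100a13 of 0.276. S100a13 also missed the threshold under RLE scaling, at 0.0914, and in DESeq2, which called 4 S100 genes in this contrast.

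S100a1 ran from 14.6 to 84.0 CPM in ntCZC (median 48.7) and from 64.8 to 218 in tissue (median 177). The ranges met only at ntCZC het replicate 1 and tissue wt replicate 5, and the log2 difference was -1.77 (SE 0.286, adjusted p = 1.76e-05). S100g had 1 UMI in all ntCZC libraries together and 76708 in tissue, where it read 154 ± 74.2 CPM (SD, n = 9). The pooled ratio was 2208, with a counting interval of 396 to 87208 (adjusted p = 3.30e-12). S100b had 0 UMIs in ntCZC, which allows up to 0.224 CPM over the pooled libraries, against 0.539 ± 0.222 CPM in tissue (SD, n = 9), and was too low to test.

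The other 4 genes did not pass. S100a10 read 391 ± 166 and 312 ± 96.8 CPM in ntCZC and tissue, S100a11 438 ± 290 and 374 ± 130, S100a8 742 ± 1552 and 450 ± 466, and S100a9 855 ± 2065 and 615 ± 589. The SDs of S100a8 and S100a9 in ntCZC exceeded their means.

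**Figure D4:**
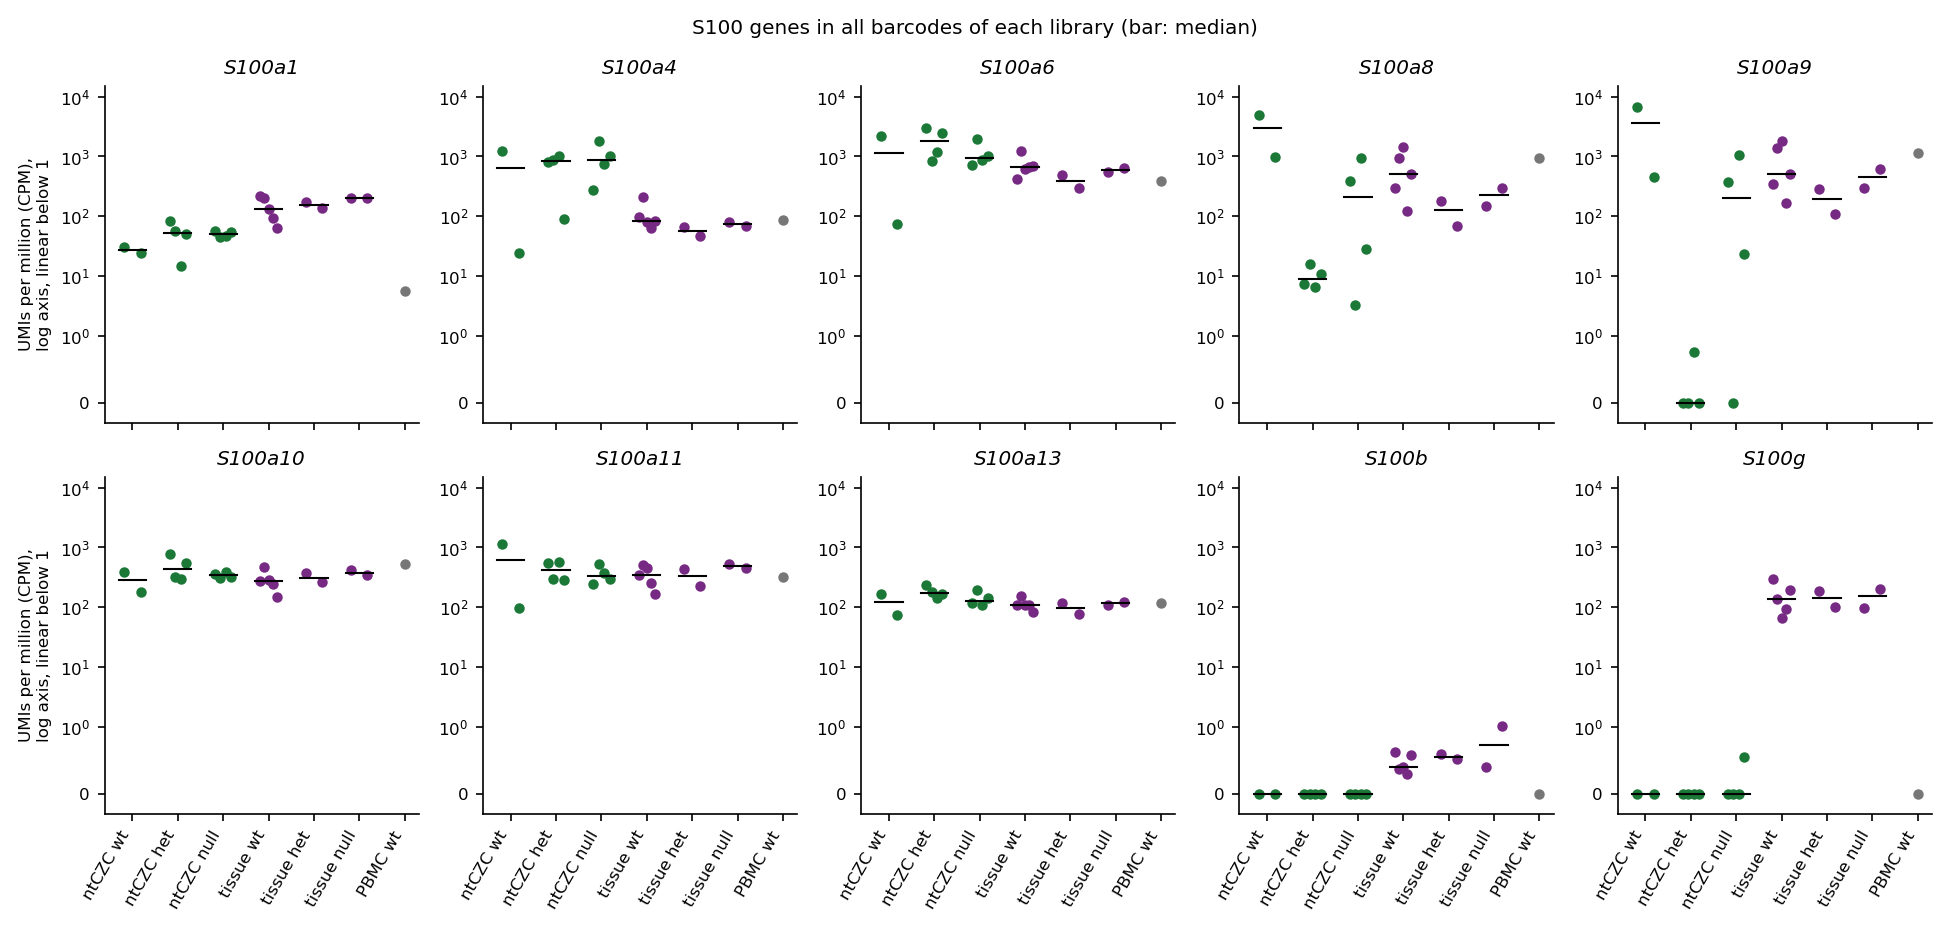
CPM of each S100 gene in all barcodes of each library, on a log axis that is linear below 1, for ntCZC (green), tissue (purple) and PBMC (grey) by genotype label, with black bars at medians. S100a4 is higher and S100a1 lower in ntCZC than in tissue, S100b and S100g are at or near 0 in ntCZC, and S100a8 and S100a9 spread from under 20 CPM in ntCZC het to 5016 and 6654 CPM in ntCZC wt replicate 1.

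Genes known to work with S100 proteins were read in the same contrast, in which 64.5% of all genes were called, the share against which the counts below are to be read. Of 10 tested annexin and scaffold partners, 4 were higher in ntCZC, led by Anxa1 (log2 1.00) and Ahnak (0.75), a large scaffold of the S100a10 and annexin A2 complex, followed by Cacybp (0.62). Plat, which encodes the plasminogen activator that S100a10 can bind, was lower, at 0.354 ± 0.990 CPM (SD, n = 10) against 32.0 ± 6.84 (SD, n = 9). Among 6 receptor genes Ly96 was higher (log2 0.68), while Ager, the RAGE gene (log2 -3.90), and Cd36 (-0.98) were lower. Among 5 tested genes of a neutrophil list, not all of them granule genes, Padi4 (4.83) and Lyz2 (2.72) were higher and Lcn2 (-4.54) lower. The only tested S100 gene outside the 10, S100a16, had 2 UMIs in ntCZC and 72.0 ± 17.8 CPM in tissue (SD, n = 9). The median log2 difference was 0.35 over the 9 tested S100 genes and 0.17 over the annexin and scaffold partners. It was -0.44 over the receptors, 0.90 over the neutrophil list and -0.08 over all genes.

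Whether differences between ntCZC and tissue held within like cells was read in nonclassical monocyte-like barcodes, of which 899 were in ntCZC and 538 in tissue. Here 949 of 3485 genes (27.2%) differed between 7 ntCZC and 7 tissue libraries, and 2 of the 5 tested S100 genes did. S100a4 was higher in ntCZC. It read 1144, 1617 and 1092 CPM in het replicates 1, 2 and 4, 485, 1625 and 1869 in null replicates 1, 2 and 4, and 1100 in wt replicate 1. Tissue libraries ran from 558 to 839 CPM, so that all ntCZC libraries but null replicate 1 lay above them. The log2 difference was 0.63 (SE 0.203, adjusted p = 0.0244).

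S100a10 was lower in circulating nonclassical monocyte-like barcodes. It ran from 28.9 to 120 CPM in the 7 ntCZC libraries and from 150 to 291 CPM in the 7 tissue libraries, which did not overlap. The log2 difference was -1.64 (SE 0.231, adjusted p = 1.54e-05), and 5.52% of thinned ntCZC barcodes against 13.7% of tissue ones had a UMI. S100a6 (1176 ± 281 and 1051 ± 271 CPM, SD, n = 7 each), S100a11 (500 ± 93.6 and 381 ± 97.2) and S100a13 (162 ± 34.6 and 127 ± 43.0) did not pass, with adjusted p from 0.547 to 0.683.

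Of the partner genes in these barcodes, to be read against the 27.2% of all genes, Ahnak was lower in ntCZC (log2 -0.52), 1 of 9 tested, and Cd14 (-3.34) and Cd36 (-1.04) were lower among 3 receptors. Summed neutrophil markers ran from 61.8 to 120 CPM in ntCZC, where 4 of 6 had a UMI, and from 46.7 to 173 in tissue, where 6 of 6 had. S100a8 and S100a9 in these barcodes reached 395 and 662 CPM in tissue (null replicate 3). In ntCZC they reached 7.06 CPM (het replicate 2) and 12.0 CPM (wt replicate 1). Summed macrophage markers reached 190 CPM in ntCZC and 78.8 in tissue. The part of such other RNA in the S100 differences was not tested. The S100a4 call was lost with at least 4 markers (adjusted p = 0.130) and without ntCZC null replicate 2, null replicate 4 or tissue wt replicate 4 (0.0540, 0.0652 and 0.0524), while S100a10 passed in all 24 alternatives. Without a low-count filter, or with 10 CPM in 2 libraries, 6 S100 genes were called, the others being genes too low for the main filter.

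**Figure D5:**
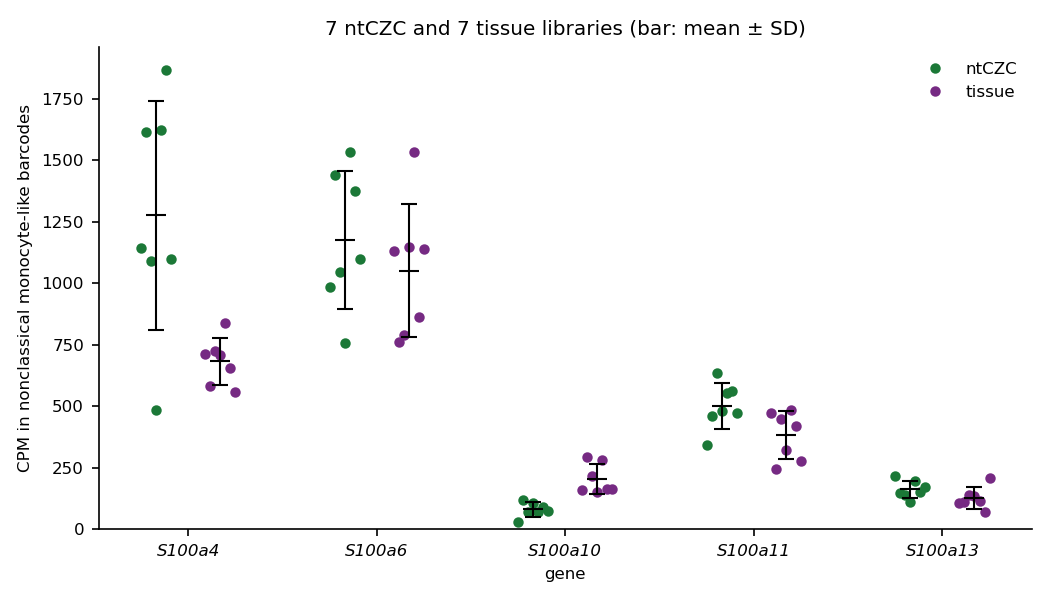
CPM of the 5 tested S100 genes in nonclassical monocyte-like barcodes of 7 ntCZC (green) and 7 tissue (purple) libraries, 1 point per library, with black bars at mean ± SD. S100a10 is below 121 CPM in each ntCZC library and above 149 in each tissue library, and S100a4 is higher in ntCZC apart from null replicate 1 at 485.

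In B cell-like barcodes 0 of 5 tested S100 genes passed between 6 ntCZC and 8 tissue libraries, where 1350 of 3907 genes (34.6%) did. S100a11 alone had an unadjusted p below 0.05. DESeq2 called 0, but 5 were called without a low-count filter and 4 with a filter of 10 CPM in 2 libraries, which in these small sums keeps genes that the main filter drops. Of the genes tested under the main filter only S100a6 was among them, without a filter (log2 1.28). The count was 1 with at least 4 markers or without tissue null replicate 3 or wt replicate 2. S100a6 varied widely within ntCZC. It read 3468 CPM in het replicate 1 and 3912 in het replicate 3, but 0 in null replicate 2, 18.5 in het replicate 4, 18.9 in het replicate 2 and 271 in null replicate 4. In het replicate 3 it was found in 67 of 70 B cell-like barcodes (95.7%), but in het replicate 1 only 4 of 25 (16%) held its 404 UMIs. S100a4 (77.3 and 76.6 CPM) and S100a10 (816 and 745 CPM) were highest in the same libraries, het replicates 1 and 3, where S100a4 read at most 5.41 and S100a10 at most 472 in the others. Their B cell-like barcodes also held more UMIs, 4659 and 14359 per barcode, against 2253 to 3378 in the other ntCZC libraries, and the part of depth in these values was not tested. Without ntCZC het replicate 1 the log2 difference of S100a6 changed from 1.39 to -0.74. Neutrophil markers had 0 UMIs in the 6 ntCZC B cell-like sums.

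Genotype labels were compared within ntCZC. Against wt, S100a8 and S100a9 were lower in het, 2 of 8 tested S100 genes, where 10 of 9379 genes (0.107%) differed. S100a8 read 5016 and 978 CPM in wt replicates 1 and 3. It read 7.35, 16.2, 10.8 and 6.54 CPM in het replicates 1 to 4 and 395, 3.29, 960 and 29.0 CPM in null replicates 1 to 4. S100a9 read 6654 and 452 CPM in wt. It had 2 UMIs over the 4 het libraries, both in replicate 4, and read 381, 0, 1040 and 23.4 CPM in null. All het values lay below both wt values. Null values of S100a8 also lay below both, whereas S100a9 in null replicate 3 lay above wt replicate 3. Pooled wt levels were 544 times those of het for S100a8 (411 to 736, counting interval) and 17500 times for S100a9 (4843 to 144516). Nearly all wt UMIs came from wt replicate 1, and from wt replicate 3 alone, a comparison added after the data were seen, the ratios were 113 (81.8 to 160) and 1283 (343 to 10794). The 158 S100a8 and 73 S100a9 UMIs of wt replicate 3 all lay in 2 neutrophil-like barcodes. These ratios therefore rest on 2 barcodes, and their intervals do not cover the spread between cells. The adjusted p was 0.0454 for S100a8 and 0.0246 for S100a9.

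Neutrophil-like barcodes numbered 96 and 2 in ntCZC wt replicates 1 and 3, 0 in each het library and 5, 0, 1 and 1 in null replicates 1 to 4. Null replicate 1 had 223 barcodes in all, 5 of them neutrophil-like, and 554 S100a8 UMIs. Null replicate 3 had 50 barcodes, 1 of them neutrophil-like, and 325 S100a8 UMIs. The part of neutrophil-like barcodes in the difference was not tested. Such barcodes held 89.9% and 100% of the pair's UMIs in wt and 70.2% to 99.4% in the null libraries that had them. Outside neutrophil-like barcodes S100a8 read 546 CPM in wt replicate 1, 0 in wt replicate 3 and 3.29 to 16.2 CPM in the het and null libraries. Lcn2, a neutrophil granule gene, was also lower in het (edgeR adjusted p = 0.0377), 1 of 5 tested genes of the neutrophil list. Neither S100 call held without het replicate 1 (adjusted p = 0.173 and 0.128) or het replicate 2 (0.141 and 0.111) or without sex in the model (0.145 and 0.140). S100a8 was also lost without wt replicate 3 (0.114) or null replicate 1 (0.0641) and, narrowly, under RLE scaling or a filter of 10 CPM in 2 libraries.

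Null did not differ from wt or het in ntCZC at the adjusted threshold. Against wt, 0 of 9379 genes (0%) and 0 of 8 S100 genes passed, with 3 S100 genes (S100a4, S100a8, S100a9) at an unadjusted p below 0.05 and 1 called by DESeq2. Against het, 0 of 9379 genes and 0 S100 genes passed, with S100a4 and S100a9 below 0.05 unadjusted and 0 called by DESeq2. S100a4 read 280, 1794, 742 and 1036 CPM in null replicates 1 to 4, 793, 872, 90.1 and 1001 in het, and 1246 and 24.8 in wt replicates 1 and 3.

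In tissue sums no S100 gene differed by genotype label in edgeR's test, where 2 of 17863 genes (0.0112%) differed in null and 0 (0%) in het. Null against wt had 0 of 10 S100 genes below an unadjusted 0.05, and het against wt had 3, S100a4, S100a8 and S100a9, all lower in het. DESeq2 called 0 in both. S100a8 read 302, 956, 1462, 124 and 504 CPM in wt replicates 1 to 5, 182 and 69.9 in het replicates 1 and 2, and 151 and 303 in null replicates 2 and 3. Het values fell within the lower part of the wt range or below it.

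The same held within classes. In neutrophil-like barcodes 0 of 2173 genes passed for either label. S100a8 there read 21202 ± 6272 CPM in wt (SD, n = 4), 14080 ± 1863 in het (SD, n = 2) and 14823 ± 4851 in null (SD, n = 2), with log2 differences of -0.74 (SE 0.371) and -0.47 (SE 0.422) and adjusted p of 0.622 and 0.863. S100a9 read 28533 ± 6796, 23354 ± 1544 and 29390 ± 10591 CPM. Of 8 tested S100 genes 0 passed for either label; S100a10 alone had an unadjusted p below 0.05, in het, and DESeq2 called 0.

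In macrophage-like barcodes 0 of 6804 genes passed for either label. Of 9 tested S100 genes, S100a8, S100a9 and S100g were below 0.05 unadjusted in het and 0 in null, and DESeq2 called 1 in het and 0 in null. In fibroblast-like barcodes 3 of 3765 genes (0.0797%) passed in null and 0 in het, with 0 S100 genes in either, S100a4 and S100a9 being below 0.05 unadjusted in het, 0 in null, and DESeq2 calling 0. In endothelial cell-like barcodes 0 of 11721 genes passed, S100a8, S100a9 and S100g were below 0.05 unadjusted in het and 0 in null, and DESeq2 called 0. S100a13 in this leading class read 432 ± 67.1 CPM in wt (SD, n = 5), 349 ± 26.2 in het (SD, n = 2) and 372 ± 17.2 in null (SD, n = 2), with adjusted p of 0.906 and 1.00. Without tissue null replicate 3 or any other tissue library, 0 S100 genes passed in each of these comparisons.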

How the data were processed

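Single cells were captured with 10x 3' v3 chemistry and aligned by the authors to mm10. The deposited matrices hold raw UMI counts per gene and barcode; their headers name Cell Ranger 3.0.2, and the submitters' processing notes list 2.1.1. Barcodes passed with 200 genes or more and a mitochondrial share of 25% or less. Doublets were scored with Scrublet in tissue libraries (0.8% per 1000 barcodes, at most 25%). Marker-gated classes needed 3 of 6 markers and a lead of 2 over any other class.

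Counts were summed per library over all barcodes, or per class where a library had at least 20 barcodes. CPM are UMIs per 1000000 of that sum. Sums were tested with edgeR 4.0.16 (quasi-likelihood, TMM, filterByExpr, labelled sex as covariate, also for tissue null replicate 3, whose transcripts go against its label, Benjamini-Hochberg over all genes tested, threshold 0.05) in R 4.3.3, after tests on simulated data; DESeq2 1.42.0 was an alternative. The SE of a log2 difference is its size over the root of the F statistic. Groups came from the labels. Class order was tested with exact sign flips on log2(CPM + 10). Shares were thinned to 1000 UMIs, leaving out shallower barcodes. A count of 0 allows 3 counts, and intervals are 95%.

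S100 genes called in the main test of a comparison were named, with the number tested, and those not called were named in part. Partner lists were given as counts with at most 4 called genes each. The genes most like each S100 gene were given by Pearson r. The genes, lists and markers were chosen with earlier results of these data known. Same-numbered replicates had correlated deviations of -0.30 to 0.17 and were not treated as pairs. The closest replicate libraries differed beyond sampling noise (chi-square per degree of freedom of 4.11).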

Additional observations from a re-analysis of the deposited data

Results flagged for a closer look

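Of 65 groups of 4 to 10 libraries examined, 10 held a library that lay apart from the rest by Dixon's criterion, which chance meets in about 1 of 20 groups. That rate need not hold where the other values are 0 or close to it. In each of the 10, the others were only the libraries of the same kind and genotype label. In all-barcode sums these were S100a4 in tissue wt replicate 2 (212 CPM, others 62.8 to 96.8), S100a9 in ntCZC het replicate 4 (0.769 CPM, others 0) and S100g in ntCZC null replicate 4 (0.557 CPM, others 0). The S100a9 value came from 2 UMIs and the S100g value from 1 UMI. In macrophage-like barcodes S100a1 (306 CPM, others 67.3 to 95.1) and S100a10 (582 CPM, others 65.4 to 197) stood apart in tissue wt replicate 2. Tissue het and null libraries ran from 104 to 293 CPM for S100a1 in this class, and from 229 to 459 CPM for S100a10. S100b stood apart in wt replicate 5 (2.21 CPM, others 0 to 0.132), with 2 S100b UMIs over all macrophage-like sums. In fibroblast-like barcodes S100a8 (218 CPM, others 6.06 to 28.2) and S100a9 (301 CPM, others 0 to 28.2) stood apart in wt replicate 2, and S100a10 in wt replicate 3 (981 CPM, others 792 to 821). S100a10 ran from 797 to 1276 CPM in the het and null libraries, a range that holds the 981 CPM of wt replicate 3. In endothelial cell-like barcodes S100a4 read 554 CPM in wt replicate 5, against 44.8 to 140 in the others.

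The female tissue library without a group exceeded the highest grouped tissue library for S100a1 (240 against 218 CPM), S100a10 (493 against 468), S100a11 (649 against 522) and S100a13 (193 against 156).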

How the results depend on the processing

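Counts of S100 genes called stayed within 1.5 times in 295 of 324 alternatives. Most comparisons had a main count of 0, and a 0 that stayed 0 is scored as unchanged. The class order is also included, where a pair on its own could not pass. Such cases say nothing about how firm a called gene is. Those called between ntCZC and tissue were 3 when only barcodes of 200 or more genes and a mitochondrial share of 20% or less were summed. DESeq2 gave 1 in ntCZC null against wt and 1 in macrophage-like het. For ntCZC het against wt the count was 1 under RLE scaling or a filter of 10 CPM in 2 libraries, 0 without sex, and 0 to 2 with a library left out. Without a low-count filter it was 6 in nonclassical monocyte-like, 5 in B cell-like, 1 in macrophage-like null, 3 in macrophage-like het, 2 in fibroblast-like het and 3 in endothelial cell-like het barcodes. The filter of 10 CPM in 2 libraries gave 6 in nonclassical monocyte-like and 4 in B cell-like barcodes, and at least 4 markers gave 1 in B cell-like ones. Leaving out libraries gave 1 to 2 in nonclassical monocyte-like and 0 to 1 in B cell-like barcodes, the latter 1 without tissue null replicate 3 or wt replicate 2.

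With the replicate number as a block, which does not pair these libraries, the count was 0 in ntCZC het against wt, and 1 in nonclassical monocyte-like, B cell-like, fibroblast-like null and fibroblast-like het barcodes. S100a8 and S100a9 between ntCZC and tissue changed to log2 -0.73 and -2.23 under the block.

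Reversals were otherwise in genes not called. Between ntCZC and tissue S100a11 turned to -0.032 under RLE scaling and -0.028 in DESeq2 and to -0.16 in the stricter barcodes, where S100a10 was -0.0026. Leaving out libraries gave ranges of -0.20 to 1.04 for S100a8, -1.42 to 0.57 for S100a9 and -0.012 to 0.27 for S100a11, each lowest without ntCZC wt replicate 1. In nonclassical monocyte-like barcodes S100a6 was 0.087 without a filter, 0.10 with 10 CPM in 2 libraries and -0.17 to 0.021 with libraries left out, and S100a11 was -0.061 with doublets kept. In B cell-like barcodes S100a4 was -0.68 in DESeq2 and -0.98 to 0.55, and S100a6 -0.74 to 1.77, with libraries left out. The cause was not tested. Neutrophil-like null against wt with at least 4 markers was not run, since fewer than 2 libraries remained. Depth limits S100b, and the wt ntCZC group rests on 2 libraries.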

Other observations

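The 2 tissue libraries without a group also showed the S100a8 to S100a9 ratio of neutrophil-like barcodes elsewhere in the library. In the male library it was 0.505 in 161 neutrophil-like barcodes and 0.580 in all other barcodes, and in the female library 0.536 in 283 neutrophil-like barcodes and 0.538 elsewhere.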
